A study of Mus musculus with 2 samples.

Results

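The genes described here encode the nuclear share of the oxidative phosphorylation system, chosen by symbol from the deposited table: all NADH dehydrogenase symbols of the Ndufa, Ndufb, Ndufc, Ndufs and Ndufv series, the succinate dehydrogenase subunits, the Uqcr genes with Cyc1, the Cox4 to Cox8 genes and the Atp5 genes. The rule took 86 of 15953 genes, 83 on autosomes and 3 on the X chromosome. Of these, 80 reached 1 CPM (read per 1000000 reads counted) in at least 1 library. By complex, 37 genes belonged to complex I, 4 to complex II, 9 to complex III, 19 to complex IV and 17 to complex V. Ndufa4 and its paralogue Ndufa4l2 carry complex I names but were counted with complex IV, where the protein is found. The symbols take subunits almost without exception: Cox7a2l, a supercomplex assembly factor, was the 1 member that is no classical subunit. Assembly factors and related genes, called assembly factors below, were therefore read from a separate list of 58 genes. The subunits encoded by mitochondrial DNA were not analysed here.

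The study compared mouse neural stem cells in suspension culture, in 1 library of the genotype Hikeshi conditional knockout (cKO) and 1 library of wild-type cells. Hikeshi is the import carrier of HSP70 chaperones. The labels do not give the Cre driver, the age of the animals or the number of animals behind a library. With 1 library per genotype there is no replicate check and no test, and every interval below is a 95% counting interval of these libraries.

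The libraries held 18912683 reads (cKO) and 18839079 reads (wild type). Hikeshi itself had 640 reads in the cKO library against 718 in the wild-type library, a ratio of 0.888 (0.797 to 0.989). The labels do not say which exons were deleted, so a count over the whole gene does not check the label. The libraries also differed in Y-linked genes: 4 of them had 305 to 1265 reads in the cKO library and 0 to 1 in the wild-type library. Marker genes of neural cells differed too. The astrocyte marker Gfap had 1519 reads in the cKO library against 7765 in the wild-type library, the oligodendrocyte marker Mbp 58 against 1974 and the neuroblast marker Dcx 80 against 824. Among progenitor markers, Nes and Vim were higher in the cKO library at 14759 against 10717 reads and 86583 against 51167, while Sox2 had 7633 against 7659, Pax6 382 against 431 and Olig2 14884 against 15980. The part of these differences in the results below was not tested. Genotype, sex-linked expression and the mix of cells cannot be told apart in this design, and in bulk RNA fewer cells of a type and less RNA per cell cannot be told apart either.

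Oxidative phosphorylation moves electrons from NADH (complex I) and succinate (complex II) through ubiquinone, complex III, cytochrome c and complex IV to oxygen, and complex V uses the resulting proton gradient to make ATP. Most subunits are encoded in the nucleus, and complexes I, III, IV and V also need subunits from mitochondrial DNA. Neural stem cells are known for a mostly glycolytic metabolism that shifts towards oxidative phosphorylation as they differentiate into neurons.

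Members of all 5 complexes had nearly the same level in both libraries. Of the 80 kept members, 0 were higher in the cKO library by 1.5-fold or more and 0 were lower by as much on the scale of log2(CPM + 1). Among the 12618 kept genes of the whole table, 4.22% were that much higher and 10.2% that much lower. At 1.2-fold, 0 members were higher and 4 lower, against 16.9% and 23.9% of all kept genes. Thus 76 of 80 members, or 95%, lay within 1.2-fold, beside 59.3% of all kept genes and 63.6% of genes with a mean of at least 5 CPM.

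The median log2 difference of the members was -0.03 (cKO over wild type), and that of all kept genes was -0.02. The SD between genes was 0.11 among members and 0.50 among all kept genes, with lowest and highest member values of -0.37 and 0.19. The members together took 1.56% of the reads in the cKO library and 1.58% in the wild-type library, a ratio of 0.992 (0.987 to 0.997). That ratio depends on the scaling at this size: it was 1.01 with TMM factors, and the members' median was 0.01 relative to genes of like GC content. No direction is therefore read from the median or the sum.

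**Figure D1:**
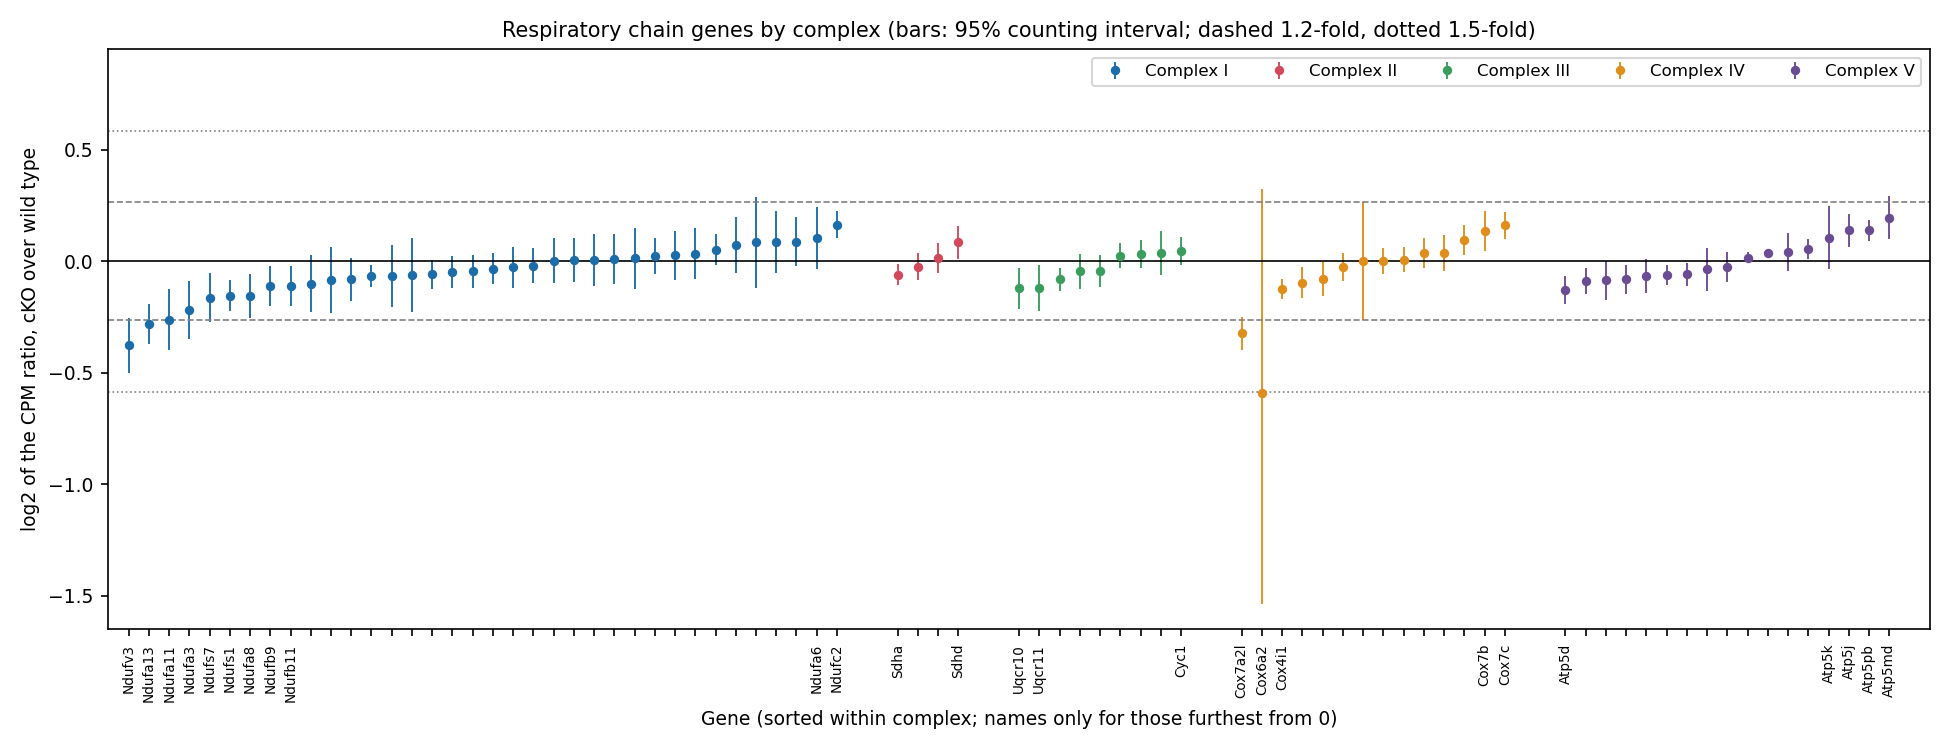
log2 of the CPM ratio (y axis, cKO over wild type) of the 80 kept members, sorted within complexes I to V along the x axis; points are single genes, named where furthest from 0, bars their 95% counting intervals, and dashed and dotted lines mark 1.2-fold and 1.5-fold. Ndufv3, Cox7a2l, Ndufa13 and the weakly expressed Cox6a2 stand lowest, at ratios of 0.770, 0.799, 0.822 and 0.664, and Atp5md highest at 1.14.

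**Figure D2:**
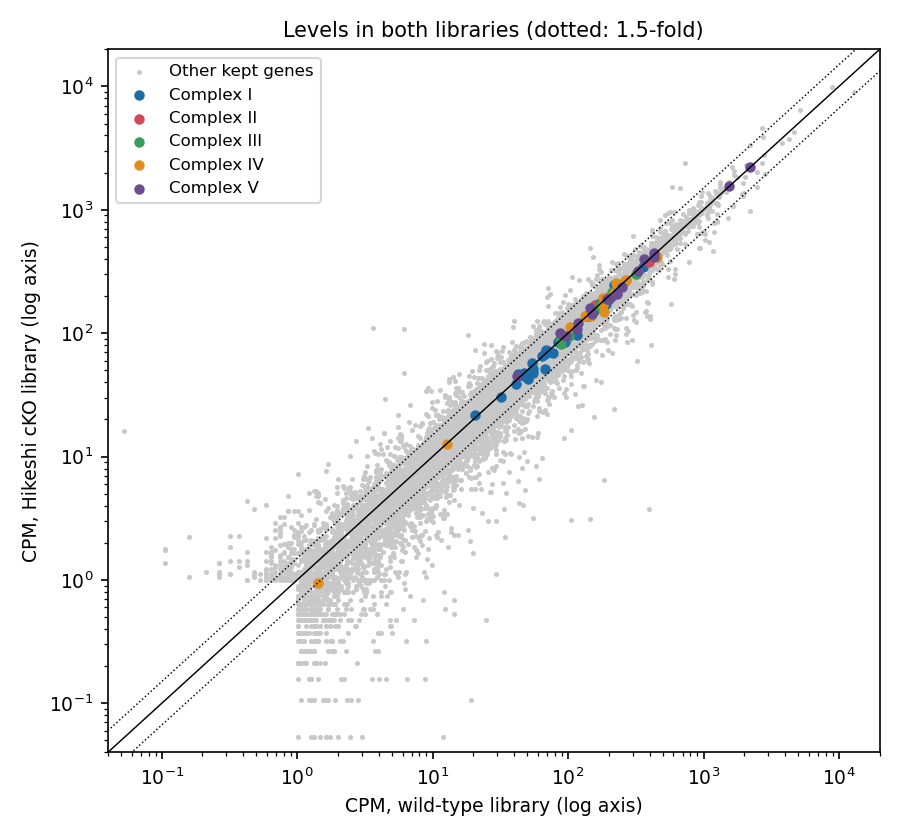
CPM in the cKO library (y, log axis) against CPM in the wild-type library (x, log axis) for kept genes with reads in both libraries, members coloured by complex, with the line of equality and dotted lines at 1.5-fold. Members follow the line of equality over their range of levels, while other genes spread past 1.5-fold on both sides.

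By complex, the median log2 differences were -0.04 for complex I (36 kept members), -0.01 for complex II (4), -0.04 for complex III (9), 0.00 for complex IV (14) and -0.03 for complex V (17). The summed reads of complex I had a ratio of 0.970 (0.960 to 0.980), and those of complex V 1.01 (1.001 to 1.02). With TMM factors these sums were 0.985 and 1.02, and on deposited TPM values 0.949 and 0.978, so the side of 1 on which complex V lay changed with the unit. The core subunits and the accessory subunits did not stand apart: the 18 core subunits had a median of -0.03 and the 61 kept accessory subunits a median of -0.03, with SDs of 0.07 and 0.11. The core list is not limited to catalytic subunits and includes Sdhc, Sdhd, Atp5c1, Atp5d and Atp5e.

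Complex I takes electrons from NADH. Its flavin subunit gene Ndufv1 had 2862 reads in the cKO library against 2942 in the wild-type library, a ratio of 0.969 (0.920 to 1.02). The iron-sulfur subunit genes Ndufv2 and Ndufs1 had ratios of 1.04 (0.987 to 1.09) and 0.898 (0.856 to 0.942), the second from 3237 reads against 3590. Ndufs7, whose protein lies near the ubiquinone site, had 1305 reads in the cKO library against 1456 in the wild-type library, a ratio of 0.893 (0.828 to 0.963). Ndufs3 and Ndufs8 had ratios of 0.985 (0.933 to 1.04) and 0.945 (0.885 to 1.01). Of these 6 core subunit genes, 5 lay below 1 and Ndufv2 above it, all within 1.2-fold.

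The 4 members that passed 1.2-fold were Ndufv3, Ndufa13, Cox7a2l and Cox6a2. Ndufv3 (chromosome 17, 31520115 to 31531326, GRCm38.p6), an accessory subunit of the NADH-oxidising arm, had 976 reads in the cKO library against 1263 in the wild-type library, a ratio of 0.770 (0.707 to 0.837), which made it the lowest well-covered member. Ndufa13 (chromosome 8), also known as GRIM19, had 1812 against 2195 reads, a ratio of 0.822 (0.772 to 0.875). Ndufa11, an accessory subunit of the membrane arm, had 798 against 953 (ratio 0.834, 0.758 to 0.917) and lay just inside 1.2-fold, as did the small membrane-arm subunit gene Ndufa3 at 899 against 1043 (0.859, 0.784 to 0.940). The GENCODE transcripts of Ndufa11 and Ndufa13 have a GC content of 58.2% and 60.4%. Relative to genes of like GC content only Ndufv3 and Cox7a2l stayed past 1.2-fold, at log2 differences of -0.30 and -0.31, while Ndufa13 was at -0.18.

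At the upper end of complex I, Ndufc2, a membrane-arm subunit gene, had 4617 reads in the cKO library against 4109 in the wild-type library, a ratio of 1.12 (1.07 to 1.17). Ndufs4 and Ndufs6, accessory subunits near the NADH-oxidising tip, had 1609 against 1601 and 865 against 812. The Ndufb4 gene has near-identical copies, and its reads were split among them: Ndufb4 (chromosome 16) had 1085 against 1028 reads, Ndufb4c (chromosome 15) 414 against 389 and Ndufb4b (chromosome 19) 7 against 0. The values of single copies are uncertain, and their sum had a ratio of 1.06 (0.984 to 1.14). In all, 9 members carried fractional reads, which marks reads shared with another gene. The spans of 17 members share bases with another listed gene, among them Cox7a2 with Tmem30a over 2482 bases and Atp5j with Gabpa over 967. Counts of these genes are uncertain, because the strand setting of the counting is unknown.

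Complex II, which is also an enzyme of the citric acid cycle, is encoded in the nucleus alone. The flavoprotein gene Sdha had 7179 reads in the cKO library against 7463 in the wild-type library (ratio 0.958, 0.928 to 0.990), and the iron-sulfur subunit gene Sdhb 3637 against 3590 (1.01, 0.963 to 1.06). The membrane anchor genes Sdhc and Sdhd had 4353 against 4411 (0.983, 0.942 to 1.03) and 3188 against 2996 (1.06, 1.01 to 1.11). All 4 lay within 1.2-fold, on both sides of 1.

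Complex III passes electrons from ubiquinol to cytochrome c. Cyc1, which encodes cytochrome c1, had 4096 reads in the cKO library against 3957 in the wild-type library (ratio 1.03, 0.987 to 1.08), and Uqcrfs1, the Rieske iron-sulfur protein gene, 4189 against 4084 (1.02, 0.978 to 1.07). Uqcrc1 and Uqcrc2, the large subunits on the matrix side, had ratios of 0.945 (0.911 to 0.980) and 1.02 (0.978 to 1.06). The lowest members were the small subunit genes Uqcr10, with 1780 against 1930 reads (0.919, 0.861 to 0.980), and Uqcr11, with 1535 against 1662 (0.920, 0.858 to 0.987). All 9 genes lay within 1.2-fold.

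Complex IV, cytochrome c oxidase, reduces oxygen. Its subunit gene Cox4i1 had 7844 reads in the cKO library against 8510 in the wild-type library, a ratio of 0.918 (0.890 to 0.947). Cox5a and Cox5b had ratios of 1.03 (0.978 to 1.07) and 0.946 (0.897 to 0.999), and Cox6c, Cox8a and Ndufa4 had 0.935 (0.891 to 0.982), 1.0004 (0.962 to 1.04) and 1.07 (1.02 to 1.12). Cox7c was the highest member at 4785 against 4266 (1.12, 1.07 to 1.16), followed by Cox7b at 2141 against 1942 (1.10, 1.03 to 1.17). Cox7a2l (chromosome 17, 83501917 to 83514333), whose protein joins complexes III and IV into supercomplexes, was the lowest well-covered gene of the complex, with 2803 against 3495 reads and a ratio of 0.799 (0.760 to 0.840). Its paralogue Cox7a2 had 2603 against 2528 (1.03, 0.971 to 1.08), so within the COX7A family Cox7a2l held 38.3% of the TPM in the cKO library and 43.9% in the wild-type library.

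Complex V, ATP synthase, includes the members with the most reads. The catalytic F1 head genes Atp5a1 and Atp5b had 29270 reads in the cKO library against 28832 in the wild-type library (ratio 1.01, 0.995 to 1.03) and 42382 against 41221 (1.02, 1.01 to 1.04). The stalk genes of F1, Atp5c1, Atp5d and Atp5e, had ratios of 0.959 (0.929 to 0.989), 0.913 (0.874 to 0.954) and 0.942 (0.886 to 1.001), Atp5d being the lowest member of the complex. Atp5d overlaps Cbarp over 1658 bases, and Cbarp had 939 against 1108 reads. The peripheral stalk genes went both ways, with Atp5pb at 1.10 (1.07 to 1.14) and Atp5j at 1.10 (1.04 to 1.16), but Atp5h at 0.945 (0.903 to 0.989) and Atp5o at 0.960 (0.926 to 0.995). Atp5md, whose small protein belongs to the dimer interface of ATP synthase, had the highest read ratio of all kept members, with 1880 against 1636 reads and a ratio of 1.14 (1.07 to 1.22). On deposited TPM its log2 difference was 0.10, below the 0.14 of Atp5pb and of Ndufc2, the 0.13 of Cox7b and the 0.12 of Atp5j. Of the 17 complex V members 8 lay above 0 and 9 below on the log2 scale.

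Several complex IV subunits exist in alternative isoforms, and the ATP synthase rotor subunit c is encoded by 3 genes for the same mature protein. Levels between genes are compared here as deposited TPM, which is per length. Both libraries used the ubiquitous isoforms almost alone: Ndufa4 had 1624 TPM in the cKO library and 1573 TPM in the wild-type library, while Ndufa4l2, a known target of hypoxia-inducible factor (HIF), had 0.27 and 0.40 TPM, from 2 and 3 reads. Cox4i1 had 1545 and 1704 TPM, whereas Cox4i2, the form known for low oxygen and lung, had 0.41 and 1.87 TPM, from 2 and 9 reads. Cox4i2 thus made up 0.0265% of the COX4 transcripts in the cKO library and 0.110% in the wild-type library, a difference that rests on 11 reads in all (ratio 0.221, 0.0233 to 1.07). The floor of 3 reads corresponds to 0.159 CPM. The span of Cox4i2 overlaps Bcl2l1 over 6308 bases, and that of Ndufa4l2 overlaps Shmt2 over only 32 bases. Even these few reads may therefore not be their own.

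The muscle isoform genes were near the floor as well. Cox7a1 had 2 reads in the cKO library and 6 in the wild-type library, Cox8b 5 and 1, and Cox6a2 18 and 27. The plain read ratio of Cox6a2, 0.664 (0.345 to 1.25), is past 1.5-fold, but its counting interval includes 1. The testis isoform gene Cox7b2 had 1 read in each library. Cox6b2, the other isoform known from testis, was the exception with 241 and 240 reads, or 86.2 and 90.6 TPM, and made up 4.06% of the COX6B transcripts in the cKO library and 4.04% in the wild-type library. Among the rotor genes, Atp5g3 led with 1769 TPM in the cKO library and 1731 TPM in the wild-type library, followed by Atp5g2 at 1110 and 1206 TPM and Atp5g1 at 401 and 395 TPM. The order of the rotor genes was the same in both libraries, and Atp5g3 took 53.9% of their TPM in the cKO library and 52.0% in the wild-type library.

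**Figure D3:**
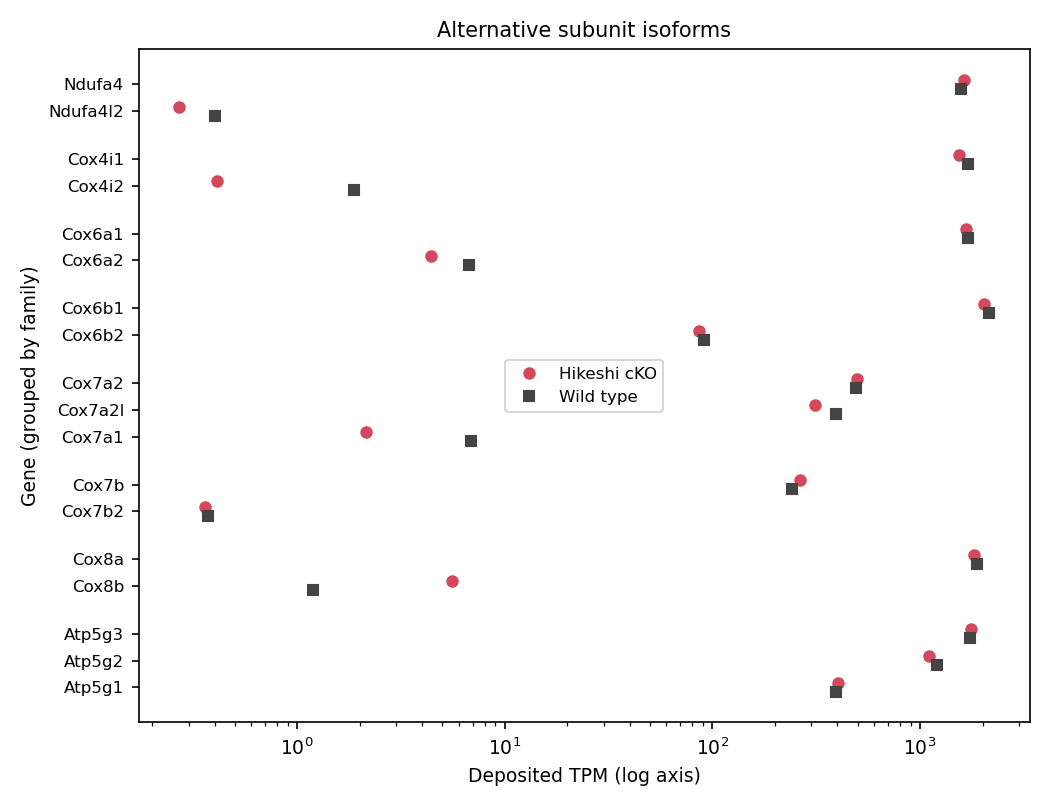
Deposited TPM (x, log axis) of alternative isoform genes grouped by family (y), with circles for the cKO library and squares for the wild-type library. In each COX4, COX6, COX7B, COX8 and NDUFA4 family 1 gene carries nearly all of the transcripts in both libraries, such as Cox4i1 at 1545 and 1704 TPM beside Cox4i2 at 0.41 and 1.87 TPM.

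The members' levels were far from equal. Median TPM values by complex were 315 in the cKO library and 323 in the wild-type library for complex I, 343 and 334 for complex II, 361 and 382 for complex III, 1116 and 1224 for complex IV, and 1185 and 1224 for complex V. Cox7c was the most abundant per length, at 2744 TPM in the cKO library and 2561 TPM in the wild-type library, followed by Atp5b at 2319 and 2262 TPM. Among members outside the restricted isoforms and the Ndufb4 copies the lowest was Ndufa11 at 29.2 and 34.9 TPM. That level rests on the gene model: the deposited reads and FPKM of Ndufa11 imply an effective length of 2355 bases (cKO) and 2346 bases (wild type), whereas its longest GENCODE coding transcript has 918 bases. Ndufa11 was the 1 member whose implied length exceeded its longest GENCODE coding transcript, so its per-length level is not comparable with those of other subunits.

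The unit of expression mattered for these genes because their transcripts are short. The median GENCODE coding transcript had 659 bases among kept members and 2305 bases among all kept genes. The effective length implied by the deposited values was longer in the cKO library for 78 of 80 members, by a median of 8.29 bases, and for all kept genes the median change was 8.57 bases. A shift of that size is small for a long gene but not for a short one. Among the 10 members with an implied length under 150 bases, the TPM-based log2 difference was lower than the read-based one by a median of 0.07, and among the 13 members of 1200 bases or more by 0.00. For Atp5k, a small subunit gene of ATP synthase, the read ratio was 1.08 (852 reads against 789) while TPM values were 1544 in the cKO library and 1554 in the wild-type library. The TPM-based value was the lower one in 70 of 80 members, and the members' median moved to -0.05 on that scale.

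**Figure D4:**
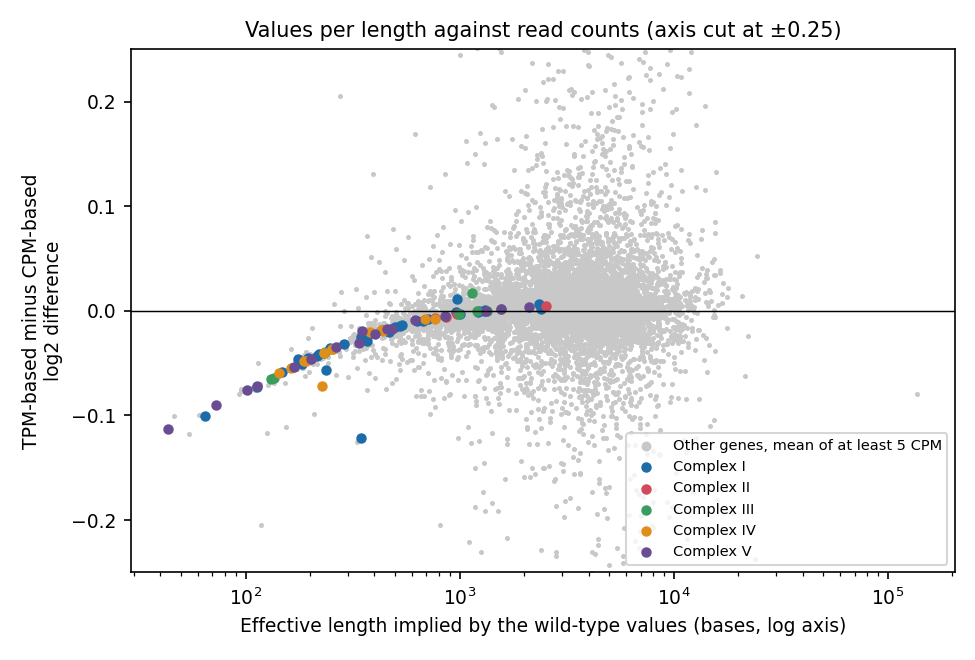
TPM-based minus CPM-based log2 difference (y, cKO over wild type) against the effective length implied by the wild-type values (x, bases, log axis). Members by complex and other genes are drawn where their mean is at least 5 CPM. Members of short implied length lie below 0, such as Atp5k at -0.11, and those above 1200 bases lie near 0. Ndufv3 at -0.12 lies below other drawn members of similar length. The weakly expressed Cox6a2 is below 5 CPM and is not drawn.

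Ndufv3 departed from that trend. Its implied effective length was 376 bases in the cKO library and 344 bases in the wild-type library, a change of 31.6 bases, where members of 300 to 600 bases changed by a median of 8.50. GENCODE lists coding transcripts of 493, 645 and 1582 bases for the gene, and whether the mix of transcripts differed between the libraries was not tested. Its TPM values were 223 in the cKO library and 315 in the wild-type library.

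The windows of 250 bases before the RefSeq transcription starts (GRCm38.p6) were searched for motifs of factors known to act on respiratory chain genes, and were found for 69 of the 86 members. NRF1, nuclear respiratory factor 1, is known to bind a motif searched here as GCGCA and GCGC with any 1 base between them, and GABPA (also called NRF2) one searched as CCGGAAG. On either strand, the NRF1 letters occurred in 13 of 69 members (18.8%), in 4.23% of all genes with a window and in 9.40% of the kept genes. The GABPA letters occurred in 12 members (17.4%), in 7.83% of all genes and in 15.6% of kept genes. The HIF core ACGTG occurred in 14 members (20.3%), 18.5% of all genes and 25.3% of kept genes. The 13 members with the NRF1 letters had a median log2 difference of -0.06 and the other 52 kept members with a window -0.02, with the GABPA letters the medians were -0.02 and -0.03 without them, and with the HIF letters -0.05 and -0.01 without them.

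The first 3 windows below are those of the 3 members that hold both the NRF1 and the GABPA letters, shown because their capitals mark these matches. The other two belong to Cox7a2l and Ndufv3, the lowest well-covered members, and hold neither. They are written 5′ to 3′ on the gene's strand and end at the base before the start, and lie at chr5:115348959-115349208 (Cox6a1, minus strand), chr9:50603850-50604099 (Sdhd, minus strand), chr11:115419920-115420169 (Atp5h, minus strand), chr17:83514334-83514583 (Cox7a2l, minus strand) and chr17:31519865-31520114 (Ndufv3, plus strand).
Cox6a1: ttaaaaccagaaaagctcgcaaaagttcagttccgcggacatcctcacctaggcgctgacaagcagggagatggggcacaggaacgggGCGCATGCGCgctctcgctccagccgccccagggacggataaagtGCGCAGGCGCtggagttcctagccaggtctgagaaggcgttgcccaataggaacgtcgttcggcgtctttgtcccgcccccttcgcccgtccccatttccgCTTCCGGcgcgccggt
Sdhd: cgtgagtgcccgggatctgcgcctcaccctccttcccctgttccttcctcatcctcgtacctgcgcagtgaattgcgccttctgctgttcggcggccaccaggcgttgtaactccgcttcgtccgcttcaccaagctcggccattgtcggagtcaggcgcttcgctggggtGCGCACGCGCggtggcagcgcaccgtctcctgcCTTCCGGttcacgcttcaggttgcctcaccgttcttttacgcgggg
Atp5h: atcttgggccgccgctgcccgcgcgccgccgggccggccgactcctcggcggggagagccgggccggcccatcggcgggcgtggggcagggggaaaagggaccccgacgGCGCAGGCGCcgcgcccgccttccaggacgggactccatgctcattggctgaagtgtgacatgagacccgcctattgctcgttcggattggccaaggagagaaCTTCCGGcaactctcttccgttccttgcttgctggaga
Cox7a2l: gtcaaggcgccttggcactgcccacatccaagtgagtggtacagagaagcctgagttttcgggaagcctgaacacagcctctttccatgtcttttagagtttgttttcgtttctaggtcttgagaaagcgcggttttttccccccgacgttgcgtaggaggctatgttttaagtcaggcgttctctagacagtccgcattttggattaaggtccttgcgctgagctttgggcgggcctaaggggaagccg
Ndufv3: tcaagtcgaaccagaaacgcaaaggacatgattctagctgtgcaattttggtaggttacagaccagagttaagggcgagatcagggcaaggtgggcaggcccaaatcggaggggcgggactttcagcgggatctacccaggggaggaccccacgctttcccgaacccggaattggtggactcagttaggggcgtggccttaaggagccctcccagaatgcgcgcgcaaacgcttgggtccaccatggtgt

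In the Cox6a1 window the NRF1 letters begin 162 and 117 bases before the start and the GABPA letters 16 bases before it. In Sdhd the NRF1 and GABPA letters begin 79 and 46 bases before the start, and in Atp5h 141 and 38 bases before it. The read ratios of these genes were 1.004 (0.965 to 1.04) for Cox6a1, 1.06 (1.01 to 1.11) for Sdhd and 0.945 (0.903 to 0.989) for Atp5h. A match is a description of the sequence and not a bound site.

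Assembly factors build the complexes but are not part of them. As listed here, together with related genes such as Higd1a, they spread more than the subunits. Of 58 listed genes 57 were kept, with a median log2 difference of -0.04 and an SD of 0.22. Their levels were lower, with a median of 34.4 TPM in the cKO library against 441 TPM for the respiratory chain members. Counting error is larger at lower read counts, and its part in the wider spread was not tested. On the scale of log2(CPM + 1), 0 were at least 1.5-fold higher and 1 was lower (4.22% and 10.2% of all kept genes), and at 1.2-fold 5 were higher and 6 lower (16.9% and 23.9%). Higd1a, a HIF target whose protein associates with complex IV, was the 1 listed gene past 1.5-fold. It had 1333 reads in the cKO library against 2326 in the wild-type library, or 1.75-fold lower (1.64 to 1.88).

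At the upper end, the complex III factor gene Lyrm7 had only 71 reads in the cKO library against 41 in the wild-type library (ratio 1.72, 1.16 to 2.60). The complex I factor gene Ndufaf4 had 1156 against 864 (1.33, 1.22 to 1.46) and the complex IV factor gene Coa7 377 against 280 (1.34, 1.15 to 1.57). At the lower end, the complex I factor genes Dmac2 and Ndufaf7 had 117 against 162 (0.719, 0.562 to 0.918) and 423 against 545 (0.773, 0.679 to 0.879). The factors of each complex lay on both sides of 0: among 18 factors of complex I, 9 lay above and 9 below. Among 24 kept factors of complex IV, 10 lay above and 14 below. The few factors of the other complexes lay more often below, with 1 above and 3 below for complex II, 2 and 4 for complex III, and 2 and 3 for complex V.

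**Figure D5:**
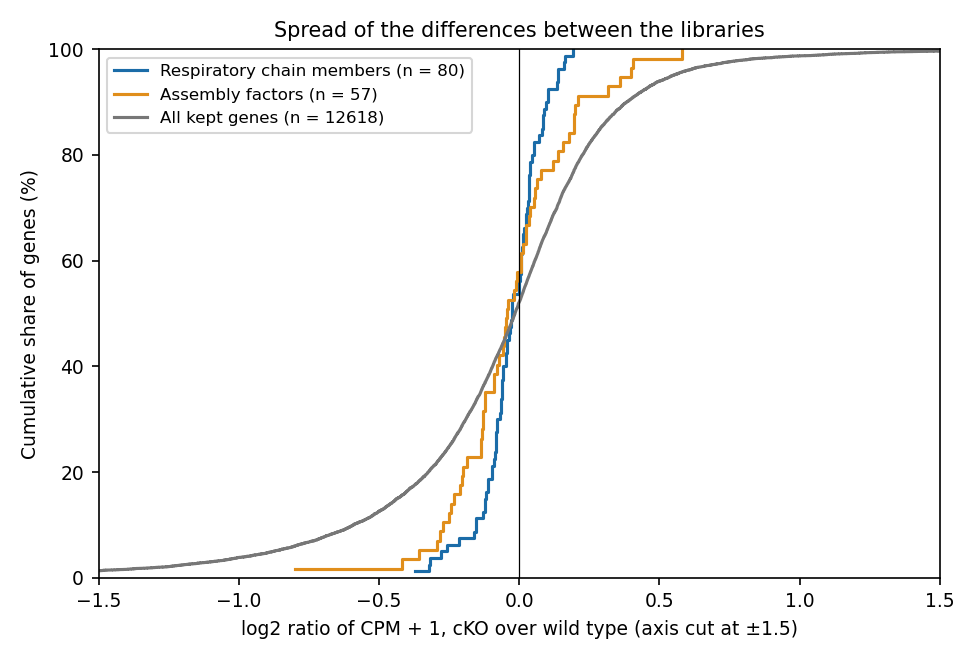
Cumulative share of genes (y, %) against the log2 ratio of CPM + 1 (x, cKO over wild type) for the 80 kept members, 57 kept assembly factors and 12618 kept genes, with the x axis ending at ±1.5. The members rise most steeply around 0, with an SD of 0.11, against 0.22 for the assembly factors and 0.50 for all kept genes.

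Cytochrome c, the mobile carrier between complexes III and IV, lies outside the symbol rule and differed more than any well-covered subunit on the higher side. Cycs had 7541 reads in the cKO library against 5442 in the wild-type library, a ratio of 1.38 (1.33 to 1.43). Ndufab1, the acyl carrier protein in complex I, which the rule also leaves out, had 2256 against 1924 (1.17, 1.10 to 1.24). The gene of the ATP synthase inhibitor, listed under its older symbol Atpif1, had 2363 against 2420 (0.973, 0.919 to 1.03).

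Of 12 regulators of mitochondrial biogenesis, 0 passed 1.5-fold in either direction (4.22% higher and 10.2% lower among all kept genes). At 1.2-fold 2 were higher, or 16.7% beside 16.9% of all kept genes, and 1 was lower, or 8.33% beside 23.9%. Their median log2 difference was 0.09. The GABP subunit gene Gabpb1 had 869 reads in the cKO library against 648 in the wild-type library (ratio 1.34, 1.21 to 1.48), and the coactivator gene Pprc1 1505 against 1129 (1.33, 1.23 to 1.44). Polg, the mitochondrial DNA polymerase gene, had 3345 against 4705 (0.708, 0.677 to 0.740). Nrf1 and Gabpa, whose motifs are described above, had ratios of 1.11 (1.01 to 1.22) and 1.07 (0.998 to 1.15).

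Most listed genes of the oxygen response that bear on the respiratory chain were lower in the cKO library. In a list of 11 such genes, 0 were at least 1.5-fold higher and 8 were at least 1.5-fold lower (4.22% and 10.2% of all kept genes), with a median of -0.88. Higd1a, named above among the assembly factors, is in this list too and is 1 of these 8 genes. The list was drawn up with earlier results on hypoxia genes known, so its direction is not independent evidence. Pdk1, the kinase that keeps pyruvate out of the citric acid cycle, had 710 reads in the cKO library against 2480 in the wild-type library and was 3.51-fold lower (3.22 to 3.82). Ldha, which makes lactate, was 1.80-fold lower (1.76 to 1.84), and the HIF prolyl hydroxylase gene Egln1 2.12-fold (2.03 to 2.22). Lonp1, the matrix protease known in human cells to degrade the COX4I1 protein under low oxygen, had 2250 against 2720 reads, a log2 difference of -0.28. Hif1a and its partner gene Arnt were the 2 listed genes above 0, with 5119 against 4554 reads and 757 against 733, at log2 differences of 0.16 and 0.04. The 80 kept members of the respiratory chain lay between log2 differences of -0.37 and 0.19, and the difference between these lists was not tested.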

How the data were processed

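Total RNA of neural stem cells was sequenced in 1 cKO library and 1 wild-type library, with groups from the genotype labels and columns matched by the genotype in their names. The authors deposited 1 table with an estimated count of reads, TPM, FPKM and a normalized read count signal per gene, named so per the file headers. About 89.8% of estimated counts were whole in the cKO and 90.0% in the wild-type column. Per the submitters' processing notes the genome was GRCm38.p6. The aligner, counter, annotation and strand setting were not given in the sources used here.

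Counts were rounded, divided by column totals to CPM, and kept at 1 CPM in at least 1 library. Differences are log2 ratios of CPM + 1, which understates those of low genes, while printed ratios and folds carry no added value. Intervals are exact conditional binomial (Clopper-Pearson) 95% intervals of the read ratio and cover counting error only, since no use of molecular identifiers is stated and PCR copies may be counted. The half-width of the kept members' intervals had a median of 0.08 on the log2 scale (0.02 to 0.93). Implied effective length is reads divided by FPKM and by the column total (per 1000000 reads), and assumes that this total is the denominator of FPKM. Transcript lengths came from GENCODE M21 and covered 98.8% of kept members; coordinates and promoters came from RefSeq tables of GRCm38.p6, matched by gene number for all 86 and for 69 members. Alternatives used edgeR 4.0.16 TMM factors and DESeq2 1.42.0 size factors. The interval and the differences were run on simulated Poisson counts, which hold counting error only and so cannot check spread between libraries.

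Named genes were members at least 1.5-fold apart, the furthest members of each complex with at least 5 CPM, core subunits, isoform families, and genes of other lists at least 1.5-fold apart or else the furthest 3 each way with at least 5 CPM. Further genes were chosen after their values were seen. The members and lists were chosen with earlier results of these data known.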

Additional observations from a re-analysis of the deposited data

How the results depend on the processing

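No member passed 1.5-fold with TMM factors, DESeq2 size factors, deposited normalized read counts, other filters, other pseudocounts, GC or length correction, or without restricted isoforms. The exception was deposited TPM, where a filter of 1 TPM admits 84 members and 2 were at least 1.5-fold higher and 2 lower. The higher were Ndufb4b (7 reads in the cKO library against 0 in the wild-type library) and Cox8b (5 against 1). The lower were Cox4i2 (2 against 9) and Cox7a1 (2 against 6). Each of these genes lay below the main filter of 1 CPM. At 1.2-fold on TPM 2 members were higher and 7 lower, the median of complex IV was -0.072 and the ratio of summed TPM 0.967. Without a filter 2 members were at least 1.2-fold higher, and Cox4i2 joined the 4 members that were at least 1.2-fold lower in the main setting. Relative to genes of like GC content 2 were at least 1.2-fold lower and the median of complex II was 0.063. Shares of all genes on the TPM scale, without a filter and under GC correction were not counted. The ratio of summed reads was 1.01 with TMM factors, 1.001 with DESeq2 size factors and 1.001 with the deposited normalized read counts. The cause of the other shifts was not tested. The summed ratio has no value under another pseudocount or under GC or length correction. GC correction moved 20 of 79 members by more than their counting half-width, and length correction 2. No paired analysis was possible because there is 1 library per genotype. Depth limits Cox6a2 and 5 of the 6 members below the filter, whose counting intervals include 1; the interval of the other, Ndufb4b at 7 against 0 reads, lies above 1, but its reads are shared with near-identical copies.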

Other observations

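Other genes for large protein assemblies were also near equal in both libraries. These lists were chosen after their values were seen and serve as description only. The 77 cytosolic ribosomal protein genes had a median log2 difference of 0.06 with an SD of 0.10, and took 4.02% of the reads in the cKO library and 3.89% in the wild-type library. The 78 mitochondrial ribosomal protein genes, whose ribosomes translate the mitochondrially encoded chain subunits, had a median of 0.03 and an SD of 0.14, and took 0.398% and 0.386% of the reads. At 1.2-fold, 3 cytosolic and 5 mitochondrial ribosomal protein genes were higher and 0 of either were lower in the cKO library, beside 0 higher and 4 lower members of the respiratory chain. As shares, 3.90% of the cytosolic and 6.41% of the mitochondrial ribosomal protein genes were higher, against 16.9% higher and 23.9% lower among all kept genes. These differences between lists were not tested.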
